A study of Caenorhabditis elegans with 16 samples.

Results

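The col genes are the numbered collagen genes of Caenorhabditis elegans, and they were followed here through feeding, starvation and refeeding in hlh-30(lf) mutants and the wild type at the L1 stage, the first larval stage. A gene was a member if its WormBase symbol is col followed by a number. This gave 156 of the 46726 genes in the deposited tables. RNAseq counts came from 16 samples, 2 for each of 8 groups, made of 2 genotypes in 4 states. The hlh-30(lf) worms carry tm1978, a deletion allele of hlh-30 that lacks exons, and the wild type was Bristol N2; the sample labels name N2 or wild type for these and only mutant for the others. hlh-30 encodes the worm counterpart of TFEB, a transcription factor of lysosome and autophagy genes. Fed L1 worms were collected 18 h after eggs were placed on dishes seeded with OP50 bacteria. Starved L1 worms hatched and stayed for 33 h in M9, a salt solution without nutrients, and the remaining groups spent a further 3 or 15 h in CeMM, a defined medium of simple nutrients. Fed and starved worms also differed in age and culture, and no worms were starved for the further 3 or 15 h, so that food cannot be told apart from age, culture or added time. Each sample pooled many whole worms, in which fewer cells of a type and less RNA per cell cannot be told apart.

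Cuticle collagens are short proteins of Gly-X-Y repeats that the epidermis (hypodermis) secretes and crosslinks into the worm's exoskeleton. A new cuticle is made in the embryo and again at each larval molt, and single collagen genes are transcribed in brief waves within each molting cycle, some of them in 1 stage only. Most members encode such proteins, with exceptions such as col-99, which encodes a transmembrane collagen. L1 worms that hatch without food arrest before the first molt and resume development once fed.

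Total counts were between 29205691 and 40955529 per sample, so that 3 counts equalled between 0.0730 and 0.105 CPM (counts scaled by the TMM-adjusted total of the library). That limit and all intervals below cover counting error alone. Counts of hlh-30 averaged 407 ± 36.3 CPM in fed hlh-30(lf) worms and 667 ± 33.2 CPM in fed wild-type worms, but 732 ± 22 CPM in starved hlh-30(lf) and 640 ± 29.96 CPM in starved wild-type worms (SD, n = 2 each); the deposited counts cover the whole gene, so they do not show the deleted part and do not check the genotype. Some libraries stood apart from the other sample of their group. Among members with at least 5 CPM in a sample, 12 of 36 were over 3 times higher in replicate 1 than in replicate 2 of wild-type worms after 3 h of CeMM, against 0.936% of all such genes. In hlh-30(lf) worms 3 of 38 were so after 15 h of CeMM (0.453% of all such genes) and 1 of 44 in starvation (0.190%). In starved wild-type worms 2 of 39 were over 3 times higher in replicate 2 (0.0699%). Replicate 1 of wild-type worms also held RNA of vit-2, a yolk protein gene of adults, at 41.5 and 0.444 CPM in replicates 1 and 2 of starved, 33.6 and 0.482 CPM of CeMM 3 h and 7.11 and 0.184 CPM of CeMM 15 h worms. The whole list of 13 adult and germline genes summed to between 18.9 and 109 CPM over all 16 samples. Of 9 epidermal genes, summed levels were 3391 to 4449 CPM in starved hlh-30(lf) and 1840 to 2053 CPM in starved wild-type worms. In the fed state they were 4352 to 4404 CPM in hlh-30(lf) and 4683 to 4800 CPM in wild-type worms. Of 5 muscle and 5 intestine genes, 3 of each were lower in starved hlh-30(lf) against starved wild-type worms and 1 intestine gene was higher. Of all genes tested, 19.3% were lower and 18.8% higher in that comparison. The part of these differences in the results on members was not tested.

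The members were spread over all chromosomes (WBcel235), with 21 on I, 24 on II, 12 on III, 41 on IV, 31 on V and 27 on X. They were small genes, with a median coding length of 912 bp and 2 exons in 78 of the 156, whereas col-99 had 18 exons. There were 19 runs of neighbouring members with no other protein-coding gene between them, which held 45 members. The longest was col-167, col-168, col-169, col-170 and col-171 on chromosome X, and others were col-10, col-144 and col-145 on V, col-92, col-93 and col-94 on III, and col-39, col-79 and col-80 on II. Neighbouring copies can be alike in sequence; the authors kept only reads that aligned uniquely. Exons of 32 members overlapped a gene on the opposite strand, and whether the counting used strand is not given in the sources used here, so values of such members may include reads of their partners.

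The gene of col-42 lies at V:18638484-18639588, col-10 at V:9164295-9165307, col-166 at X:6279675-6281019, col-17 at II:4866436-4867574, col-39 at II:10704903-10706020 and col-176 at X:10077613-10078738. Levels between genes are compared per length, in RPKM. Averaged over the 8 groups, col-42 was the highest member at 829 RPKM, followed by col-160 at 575, col-10 at 526, col-103 at 493 and col-166 at 442 RPKM. Next came col-107 at 412, col-98 at 397, col-144 at 284, col-39 at 251 and col-147 at 248 RPKM. The 10 highest members of each sample took between 68.3% and 91.8% of the members' summed CPM. At the other end 46 members stayed under 1 CPM in all groups, including 2 with no count at all, and 64 reached a mean of 10 CPM in at least 1 group. Of those 64, 29 had their highest mean in fed hlh-30(lf) and 20 in fed wild-type worms.

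**Figure D1:**
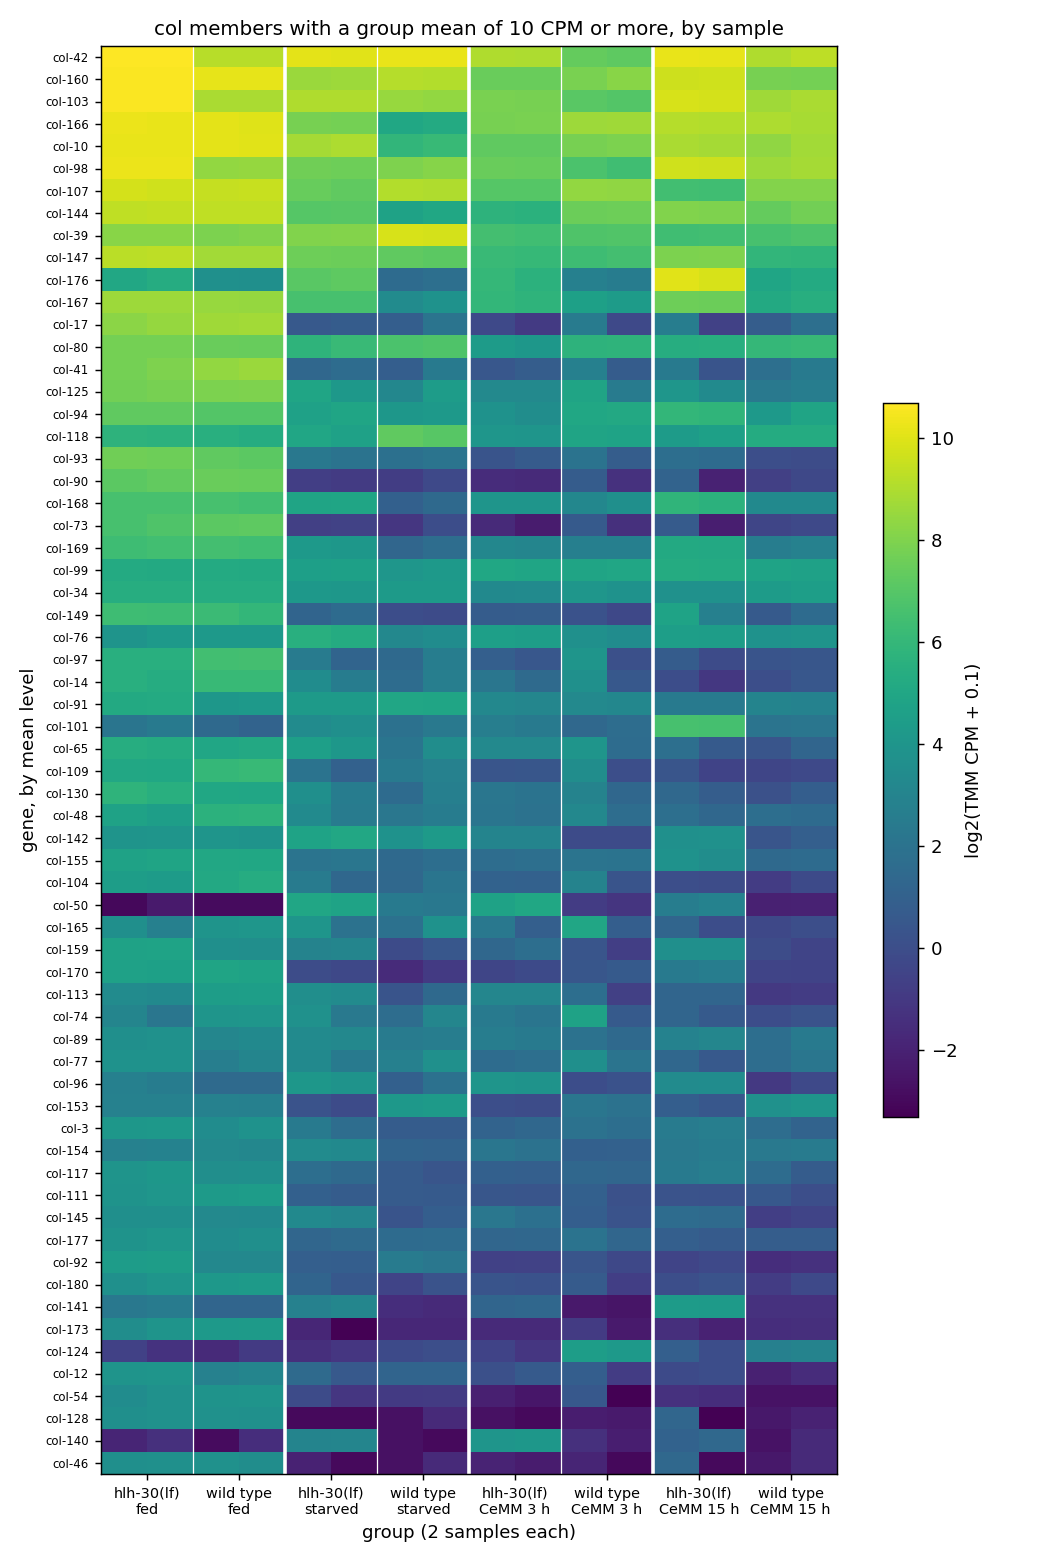
Levels of the 64 members with a group mean of at least 10 CPM, as log2 of TMM-scaled CPM plus 0.1, with 1 row per gene in order of mean level and 2 columns per group. Most rows are brightest in the fed samples, and a few such as col-39, col-50, col-101, col-124 and col-176 are brightest elsewhere.

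Members with a known stage gave a limited check, for RNA of adult or dauer worms, and do not tell the larval stages apart. The adult collagen col-7 and the dauer collagens col-2 and col-40 did not exceed 0.194 CPM in any sample, and the adult collagen col-19 reached 0.793 and 0.278 CPM in starved wild-type worms against 0.19 and 0.0949 CPM in fed ones. The higher of those starved samples was also the one with the high vit-2. In fed hlh-30(lf) worms col-19 averaged 0.368 ± 0.169 CPM (SD, n = 2), where vit-2 had 0.0497 and 0.0349 CPM. col-36 stayed under 1 CPM throughout. col-17, a larval collagen, was a fed-state gene at 304 and 359.7 CPM in hlh-30(lf) and 420.4 and 436 CPM in wild-type worms. col-99 had 37.5 and 37.1 CPM in fed hlh-30(lf) and 38.4 and 36.2 CPM in fed wild-type worms and 23.7 and 25.2 CPM in starved hlh-30(lf) and 16.5 and 18.6 CPM in starved wild-type worms, a narrow range for this family. col-120, which like col-10 and col-13 is known for lengthening life when overexpressed, was low in all groups, with 0.988 and 1.28 CPM in starved hlh-30(lf) and 0.907 and 1.05 CPM in starved wild-type worms. Fed worms had 0.174 and 0.174 CPM of it in hlh-30(lf) and 0.0949 and 0.0949 CPM in wild type.

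Summed over all members, collagen RNA was lowest at 3 h of CeMM and highest in fed worms. Fed hlh-30(lf) worms had 14068 ± 63.6 CPM and fed wild-type worms 10230 ± 24.6 CPM (SD, n = 2 in each group). Starved hlh-30(lf) worms had 4554 ± 32.9 CPM and starved wild-type worms 4719 ± 66.2 CPM, close to each other. After 3 h of CeMM the sums were 2308 ± 48.8 CPM in hlh-30(lf) and 2478 ± 98.9 CPM in wild-type worms, and after 15 h 7224 ± 254 CPM in hlh-30(lf) and 3574 ± 274 CPM in wild-type worms. Abundant genes weigh most in these sums, and with 2 samples a group an exact permutation test cannot go below p = 0.333, so none was run.

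**Figure D2:**
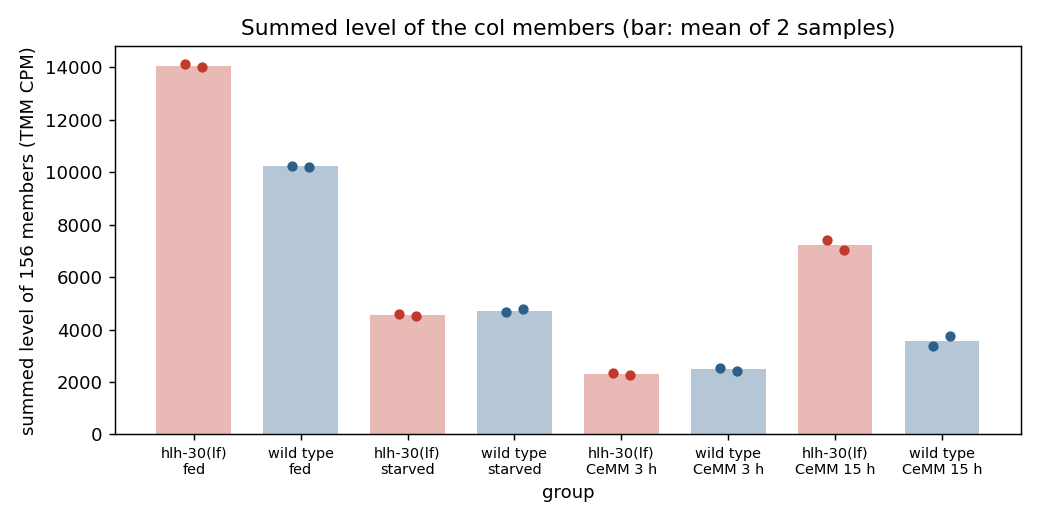
Summed TMM-scaled CPM of the 156 members in each group, with hlh-30(lf) left of wild type in each state. Bars are means and points the 2 samples; fed hlh-30(lf) worms stand highest at 14068 CPM and hlh-30(lf) worms after 3 h of CeMM lowest at 2308 CPM.

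Most of the members that fed worms expressed were lower in starved worms. All tests below are edgeR's quasi-likelihood tests over 30177 genes with Benjamini-Hochberg adjustment, called at an adjusted p of at most 0.05, and fold changes are log2 ± SE. In starved hlh-30(lf) worms, 74 of 154 tested members were lower than in fed ones (background, the share of all genes so called, 19.1%) and 24 were higher (background 18.4%), with a median log2 fold change of -0.83 over the members and 0 over all genes. In starved wild-type worms 72 were lower and 31 higher (background 20.1% in each direction), with a median of -0.70 over the members and 0 over all genes. The 2 genotypes share no sample in these comparisons, and 62 members were lower in both, 83.8% of those lower in hlh-30(lf) and 86.1% of those lower in wild type. Over all genes those shares were 66.8% and 63.5%. In the other direction 11 were higher in both, 45.8% of those higher in hlh-30(lf) and 35.5% of those higher in wild type, against 50.7% and 46.6% over all genes. A further 13 members moved in opposite directions, as did 1664 of all 30177 genes. Without replicate 1 of starved wild-type worms, 68 members were lower and 28 higher in wild type.

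The deepest falls among members with at least 10 CPM in a group were in genes that were almost silent in starved worms. col-17 had 1.44 and 1.57 CPM in starved hlh-30(lf) worms against 304 and 359.7 CPM in fed ones (log2 fold change -7.78 ± 1.0, adjusted p = 2.0e-04). In wild type it had 1.7 and 4.05 CPM in starved and 420.4 and 436 CPM in fed worms (log2 fold change -7.21 ± 0.94, adjusted p = 2.1e-04). The neighbouring col-73 behaved likewise, with 0.539 and 0.575 CPM in starved and 98.4 and 114.7 CPM in fed hlh-30(lf) samples, against 0.368 and 0.888 CPM in starved and 143 and 148 CPM in fed wild-type worms. No starved sample of these genes came near a fed one. Leaving out replicate 2 of starved wild-type worms, the wild-type values were -7.97 for col-17, -8.61 for col-73 and -7.74 for col-41, which was -6.07 without replicate 1. col-90 (-8.31 ± 0.70 in hlh-30(lf) and -8.16 ± 0.67 in wild type) and col-41 (-6.45 ± 0.78 and -6.67 ± 0.77) fell by similar amounts, as did col-93 (-5.53 ± 0.28 and -5.27 ± 0.28). col-90 overlaps let-754 on the opposite strand. Lower in abundance were col-173, col-46 and col-128, each between 11.5 and 19.8 CPM in fed worms. Starved hlh-30(lf) worms had 2 counts of col-128 in both samples together against 891 in fed ones, a 463-fold difference with a 95% counting interval of 128 to 3832. For col-170, on the X chromosome run, the log2 fold change was -5.0 ± 0.17 in hlh-30(lf) and -6.42 ± 0.19 in wild-type worms. The interaction tests whether the change between fed and starved worms differed between the 2 genotypes. It was called for col-170 (adjusted p = 0.0011) but missed the threshold for the other genes of this paragraph.

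A second set of abundant members fell far less in starved hlh-30(lf) worms than in starved wild-type worms. col-10 had 454 and 509 CPM in starved hlh-30(lf) and 60.5 and 69.2 CPM in starved wild-type worms, while fed worms had 1198 and 1184 CPM in hlh-30(lf) and 1119 and 1057 CPM in wild type. Its log2 fold change on starvation was -1.31 ± 0.10 in hlh-30(lf) and -4.07 ± 0.12 in wild type, and the 2 differed by 2.76 ± 0.15 (adjusted p = 5.8e-13). col-166 had 229 and 214 CPM in starved hlh-30(lf) and 32.6 and 37.6 CPM in starved wild-type worms, against 1232 and 1189 CPM in fed hlh-30(lf) and 1091 and 1049 CPM in fed wild-type worms. In both genes every starved sample was under every fed one, and the starved wild-type samples were lowest of all. col-144, next to col-10, had 126 and 134 CPM in starved hlh-30(lf) and 27.1 and 32.5 CPM in starved wild-type worms. The X chromosome neighbours showed it too, with interactions of 2.87 for col-167, 3.63 for col-168 and 2.76 for col-169. For col-168 the starved samples had 29.4 and 30.5 CPM in hlh-30(lf) and 1.9 and 2.72 CPM in wild type. col-113 had 12 and 10.8 CPM in starved hlh-30(lf) and 1.16 and 2.66 CPM in starved wild-type worms (log2 fold change 3.68 ± 0.67, adjusted p = 0.0029 for the interaction, which was 4.40 without replicate 2 of starved wild-type worms). It overlaps another gene on the opposite strand. In all, 29 members had a positive and 23 a negative interaction (background 14.1% and 13.6%).

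Starved wild-type worms in turn had higher levels than fed ones of a small group of collagens that were not higher in starved hlh-30(lf) worms. In hlh-30(lf) worms col-39 had 266 and 275 CPM in starved and 291 and 291 CPM in fed samples, which did not pass the test (adjusted p = 0.36). In wild-type worms it had 907 and 902 CPM in starved and 243 and 260.1 CPM in fed samples (log2 fold change 1.85 ± 0.08, adjusted p = 1.1e-16). For col-118 the levels were 31.3 and 26.3 CPM in starved and 52.6 and 50.7 CPM in fed hlh-30(lf) worms but 156 and 135 CPM in starved and 45.2 and 41.4 CPM in fed wild-type worms, an interaction of -2.59 ± 0.15. Among members with at least 10 CPM in a group, col-153 had the most negative interaction (-4.28 ± 0.23), at 1.11 and 0.837 CPM in starved hlh-30(lf) and 17.5 and 19.6 CPM in starved wild-type worms, where fed samples had between 6.9 and 7.12 CPM. col-42, the most abundant member, fell in hlh-30(lf) (-0.57 ± 0.08) and rose in wild type (1.03 ± 0.08), although its levels in the starved state were alike at 1112 and 1090.5 CPM in hlh-30(lf) and 1202 and 1216 CPM in wild-type worms. The difference lay in the fed state, with 1656 and 1622 CPM in hlh-30(lf) and 592 and 592 CPM in wild-type worms. col-91 moved like col-42 (-0.88 ± 0.10 in hlh-30(lf) and 0.78 ± 0.10 in wild type).

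**Figure D3:**
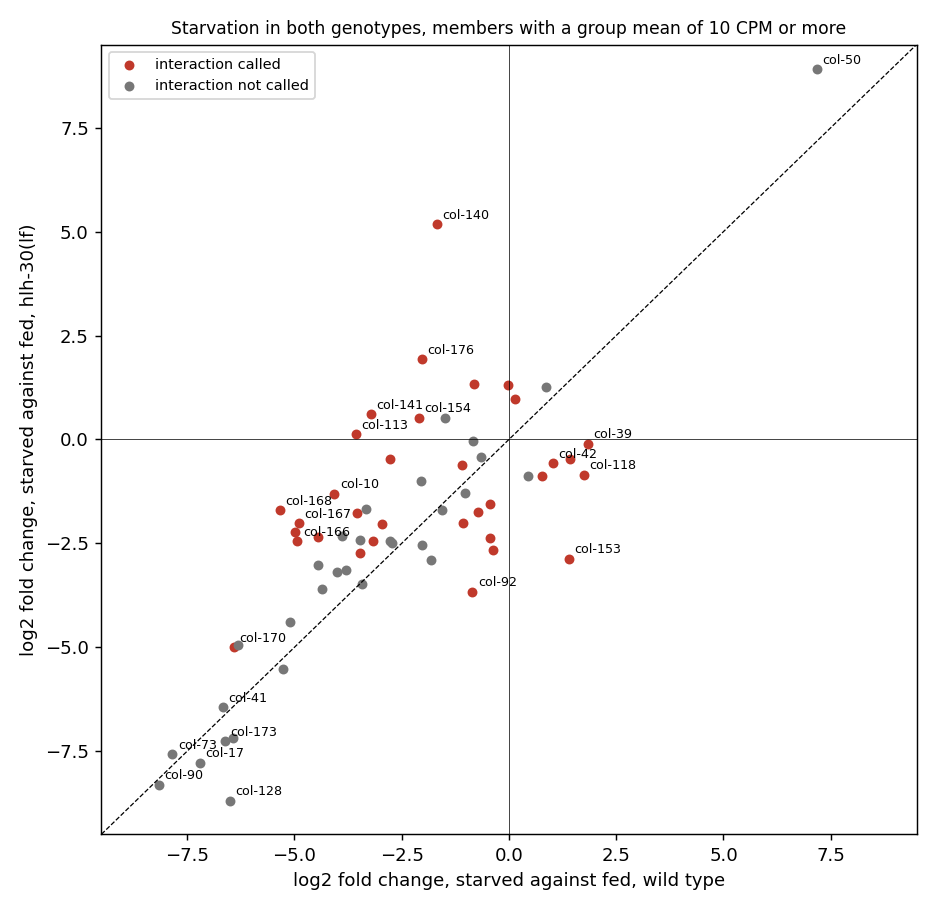
Log2 fold change of starved over fed worms in hlh-30(lf) (vertical axis) against wild type (horizontal axis) for the 64 members with a group mean of at least 10 CPM; the dashed line marks equal change. The interaction was called for 33 of them, drawn in red, and the deepest falls at the lower left lie near the line.

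Several members were higher in starved than in fed hlh-30(lf) worms. col-176 had 135 and 148 CPM in starved and 33.9 and 41 CPM in fed hlh-30(lf) worms (log2 fold change 1.92 ± 0.14, adjusted p = 1.8e-08), against 2.86 and 3.41 CPM in starved and 13.2 and 12.6 CPM in fed wild-type worms (log2 fold change -2.03 ± 0.17, adjusted p = 1.1e-07). The starved samples were thus highest in hlh-30(lf) and lowest in wild type. col-50 was near 0 in fed worms, with 4 counts in the 2 hlh-30(lf) samples together, and reached 31.6 and 27.7 CPM in starved hlh-30(lf) and 5.36 and 4.86 CPM in starved wild-type worms; both genotypes raised it. Against those 4 counts starved hlh-30(lf) worms had 2114, a 508-fold difference (95% counting interval 198 to 1867). Its fitted log2 fold change of 8.91 was 8.06 without replicate 1 and 10.004 without replicate 2 of fed hlh-30(lf) worms. col-140 had 7.87 and 8.16 CPM in starved and 0.174 and 0.279 CPM in fed hlh-30(lf) worms, and did not exceed 0.292 CPM in any wild-type sample. Smaller rises in hlh-30(lf) were those of col-76 (1.33 ± 0.12), col-96 (1.32 ± 0.18), col-101 (1.27 ± 0.15) and col-142 (0.98 ± 0.13), of which col-101 also rose in wild type (0.86 ± 0.18).

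**Figure D4:**
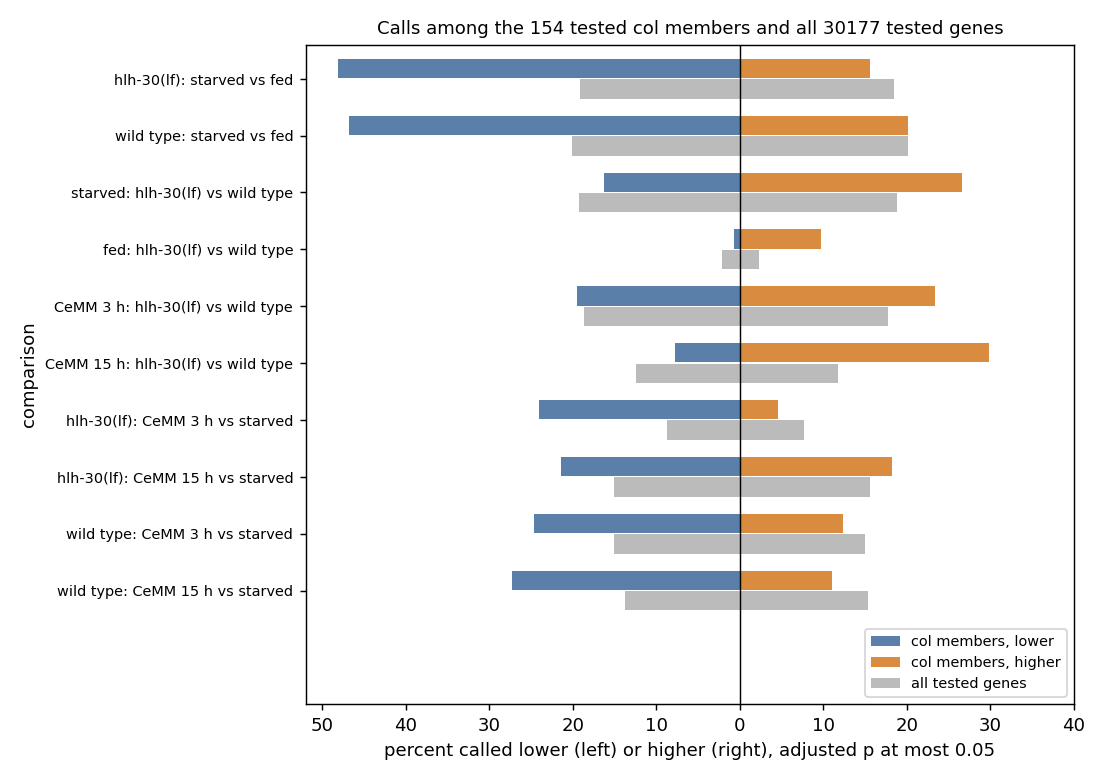
Percent of the 154 tested members (coloured bars) and of all 30177 tested genes (grey bars) called lower, to the left, and higher, to the right, in each of 10 comparisons at an adjusted p of at most 0.05. Members were called lower in starved worms at over 2 times the background, and in fed hlh-30(lf) against wild-type worms 15 were called higher and 1 lower.

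Between genotypes, the fewest calls were in fed worms. In fed hlh-30(lf) worms 15 members were higher than in fed wild-type worms (background 2.26%) and 1 was lower (background 2.16%), with a median log2 fold change of 0.05 over the members and 0 over all genes. The lower one was col-119, named after its values were seen, at 1.65 CPM or less in every fed sample. Its call was lost with each fit that left out a sample of these groups and with the replicate number as a block. The higher ones included col-42, col-160, col-103, col-98 and col-147, 5 of the 10 most abundant members. col-98 had 1260.4 and 1232 CPM in fed hlh-30(lf) and 344 and 352 CPM in fed wild-type worms (log2 fold change 1.84 ± 0.10, adjusted p = 1.4e-13). col-103 had 1568 and 1538 CPM in hlh-30(lf) and 479.9 and 482 CPM in wild type (log2 fold change 1.69 ± 0.09, adjusted p = 1.1e-13), and for col-42 the log2 fold change was 1.47 ± 0.09. No overlap between the groups was a condition for naming these genes, so it adds no support. The 2 samples of each group differed by far less than the groups. Naming the largest called changes favours this too, so it adds no support either. Of the less abundant members, col-176 (1.54), col-92 (1.25), col-159 (1.14) and col-91 (1.05) were higher in fed hlh-30(lf) worms. The abundant col-147 (0.50) and col-160 (0.44) were higher by less. The 15 sat beside fed-state collagens that did not pass the test, such as col-17 (-0.37), col-10 (0.13) and col-107 (0.24). An earlier form of the same test called 25 higher and 14 lower.

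Among starved worms, hlh-30(lf) had higher levels than wild type of 41 members and lower levels of 25 (background 18.8% and 19.3%), with a median log2 fold change of 0.22 over the members and 0 over all genes. Among the higher ones with at least 10 CPM in a group, col-176 (log2 fold change 5.50 ± 0.18, adjusted p = 8.0e-13), col-168 (3.69), col-167 (3.0), col-10 (2.89), col-169 (2.72), col-166 (2.66), col-113 (2.57) and col-50 (2.54) led. col-141, below that level, differed by 5.02, and col-140, with its levels as above, also lay below it. col-113 was at 3.29 without replicate 2 of starved wild-type worms. Among the lower ones were col-153 (log2 fold change -4.26 ± 0.17, adjusted p = 1.4e-17), col-118 (-2.34), col-39 (-1.74) and col-107 (-1.70). col-107 had 175 and 153 CPM in starved hlh-30(lf) worms and 538 and 527 CPM in starved wild-type worms. col-80, in the run with col-39, had 56 and 71.2 CPM in starved hlh-30(lf) and 104 and 113 CPM in starved wild-type worms. col-39 and col-80, 2 of the 3 members of that run, were therefore both lower in hlh-30(lf). Beside these values, starved hlh-30(lf) worms had higher levels of 6 of 9 epidermal genes and a lower level of 1, with mup-4, which anchors the epidermis to the cuticle, at 833 ± 271 CPM in hlh-30(lf) and 128 ± 5.16 CPM in wild-type worms.

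After 3 h of CeMM the mutant exceeded wild type in 36 members and was below it in 30 (background 17.7% and 18.6%), with a median log2 fold change of -0.21 over the members and 0 over all genes. The summed epidermal genes stood at 4317 to 4348 CPM in hlh-30(lf) and 1685 to 1764 CPM in wild-type worms here. Without replicate 1 of the wild-type worms these were 41 and 24, without their replicate 2 they were 31 and 43, and the earlier form of the test called 49 lower, so the number of lower members rested on these samples and on the test. col-140 had 16 and 17 CPM in hlh-30(lf) and 0.292 and 0.127 CPM in wild-type worms (log2 fold change 6.26 ± 0.26, adjusted p = 7.5e-18, or 6.99 without replicate 1 of wild type). col-50 had 26.5 and 33 CPM in hlh-30(lf) and 0.462 and 0.355 CPM in wild type (log2 fold change 6.17 ± 0.19, adjusted p = 3.5e-21). Neither gene reached 1 CPM in a wild-type sample at this time. col-96 (3.93), col-176 (3.17), col-42 (1.71), col-167 (1.34), col-76 (0.94) and col-98 (0.90) were also higher in hlh-30(lf). The largest difference the other way was col-124, with 0.604 and 0.36 CPM in hlh-30(lf) and 22.5 and 18.8 CPM in wild-type worms (log2 fold change -5.41 ± 0.25, adjusted p = 2.9e-14). It overlaps qns-1 on the opposite strand, which had 17.6 and 17.3 CPM in hlh-30(lf) and 35.5 and 35.2 CPM in wild type. col-144 (-1.88), col-80 (-1.54), col-94 (-1.40), col-107 (-1.40), col-166 (-0.83) and col-10 (-0.62) were lower in hlh-30(lf). For col-10, col-144 and col-166 this was the opposite of their order in the starved state.

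After 15 h of CeMM the genotypes parted in favour of hlh-30(lf), with 46 members higher and 12 lower (background 11.7% and 12.4%) and a median log2 fold change of 0.61 over the members and 0 over all genes. Without replicate 1 of the hlh-30(lf) worms these were 39 and 11. The summed epidermal genes were at 3966 to 4048 CPM in hlh-30(lf) and 2299 to 2333 CPM in wild-type worms. col-176 had 1089 and 925 CPM in hlh-30(lf) and 30.2 and 38 CPM in wild-type worms (log2 fold change 4.88 ± 0.16, adjusted p = 3.4e-12). col-101 had 98.5 and 94.2 CPM in hlh-30(lf) and 4.04 and 4.47 CPM in wild type (log2 fold change 4.50 ± 0.15, adjusted p = 5.3e-18). Both lay far above their level in every other group of either genotype. col-141 had 20.7 and 19.5 CPM in hlh-30(lf) and 0.292 and 0.306 CPM in wild-type worms (log2 fold change 6.05 ± 0.20, adjusted p = 1.0e-18), and its neighbour col-142 12.9 and 13.5 CPM in hlh-30(lf) and 1.2 and 1.8 CPM in wild type. col-96 (4.24), col-159 (4.07), col-169 (2.46), col-147 (2.06) and col-160 (1.89) were also higher. col-149 (log2 fold change 3.0 ± 0.64, adjusted p = 0.0079) had 27.9 and 6.85 CPM in hlh-30(lf) worms, far apart, and 1.46 and 2.84 CPM in wild-type worms. Its call was lost without replicate 1 of the wild-type worms (2.59, adjusted p = 0.073), and without replicate 1 of the hlh-30(lf) worms it was 1.69; it overlaps another gene on the opposite strand. Lower in hlh-30(lf) were col-153 (-3.26), col-107 (-1.66), col-118 (-0.81), col-34 (-0.71) and col-80 (-0.61). col-10, which parted the genotypes most in starvation among the 5 most abundant members, did not pass the test here (log2 fold change 0.28 ± 0.10, adjusted p = 0.054).

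The comparisons of genotypes in the 4 states share no sample. Of the 154 members, 7 were higher in hlh-30(lf) worms in all 4 states, namely col-35, col-96, col-101, col-103, col-141, col-159 and col-176, of which col-35 is named after its values were seen; over all 30177 genes 261 were. In the 3 states other than fed, 19 members were higher in hlh-30(lf) in each and 9 were lower in each. Those 9 were col-39, col-53, col-80, col-107, col-118, col-124, col-153, col-161 and col-181, of which col-53, col-161 and col-181, at under 10 CPM in all groups, are named after their values were seen. For col-39 the difference after 15 h of CeMM was small (log2 fold change -0.28 ± 0.08, adjusted p = 0.0099) and lost its call without any 1 of 3 samples, with adjusted p of 0.084 to 0.15. Over all genes 2013 were higher and 2002 lower in each of those 3 states. A further 18 members were higher in 1 state and lower in another, as were 1920 of all 30177 genes, and 66 members and 15111 of all genes were called in none.

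Worms in CeMM were compared with starved ones of the same genotype. In hlh-30(lf) worms, 7 members were higher and 37 lower after 3 h of CeMM (background 7.71% and 8.71%). After 15 h, 28 were higher and 33 lower (background 15.6% and 15.1%). The medians were -0.58 at 3 h and -0.29 at 15 h over the members, and 0 over all genes. Both times use the same starved samples, so their values are given side by side. The earlier form of the test called 62 lower at 3 h and 50 at 15 h. Without replicate 1 of the 15 h worms 27 were higher and 22 lower. col-176 fell at 3 h to 63.4 and 50.5 CPM and stood at 1089 and 925 CPM at 15 h, against 135 and 148 CPM in starved worms (-1.32 ± 0.14 and 2.83 ± 0.14). col-101 had 6.4 and 5.32 CPM at 3 h and 98.5 and 94.2 CPM at 15 h against 10.7 and 12.3 CPM (-0.98 ± 0.14 and 3.06 ± 0.13). Both genes thus fell first and then passed their starved level. col-98 did not pass the test at 3 h (-0.17) and had 807 and 789 CPM at 15 h against 204 and 193 CPM in starved worms (log2 fold change 2.01 ± 0.10, adjusted p = 1.5e-15). col-141 (-1.72 at 3 h and 1.36 at 15 h), col-160 (-1.10 and 1.07), col-144 (-1.34 and 0.98), col-94 (-1.15 and 1.08) and col-147 (-1.49 and 0.36) likewise fell at 3 h and were above the starved level at 15 h. col-170 (2.85), col-155 (1.61) and col-166 (1.32) were higher at 15 h. col-10 fell at 3 h (-1.64 ± 0.11) and did not pass the test at 15 h (-0.07). col-140 was 1 of the few raised at 3 h, with 16 and 17 CPM at 3 h, 2.02 and 2.54 CPM at 15 h and 7.87 and 8.16 CPM in starved worms. At both times col-39 (-1.63 and -1.66) and col-107 (-0.36 and -0.93) fell, and col-50 fell at 15 h (-2.13).

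Relative to starved worms, wild-type worms in CeMM likewise had more members lower than higher. After 3 h, 19 members were higher and 38 lower than in starved worms (background 15% and 15.1%), and after 15 h 17 were higher and 42 lower (background 15.4% and 13.8%), with medians of -0.12 and -0.80 over the members and 0 over all genes. col-166 had 398 and 409 CPM at 3 h and 506 and 466 CPM at 15 h, against 32.6 and 37.6 CPM in starved worms (3.52 ± 0.09 at 3 h and 3.79 ± 0.09 at 15 h). col-10 had 227 and 247 CPM at 3 h and 326 and 431 CPM at 15 h against 60.5 and 69.2 CPM (1.87 ± 0.11 and 2.54 ± 0.11). col-144 (2.66 and 2.66), col-168 (2.20 and 2.12) and col-167 (0.90 and 1.72) rose likewise, without reaching the level of fed worms in any sample. col-124 was highest at 3 h, with 22.5 and 18.8 CPM at 3 h, 6.79 and 7.68 CPM at 15 h and 0.793 and 0.916 CPM in starved worms (log2 fold change 4.59 ± 0.23, adjusted p = 2.1e-13 at 3 h). Without replicate 1 of the CeMM 3 h worms its value was 4.47. col-176 rose by 15 h (3.44 ± 0.17), and so did col-98 (0.65 ± 0.09), which had fallen at 3 h (-1.50 ± 0.10).

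Among the members that fell in wild-type worms was col-39. It had 113 and 119 CPM at 3 h and 98.3 and 109.8 CPM at 15 h, against 907 and 902 CPM in starved worms (-2.96 ± 0.09 and -3.12 ± 0.09). col-118 (-2.35 and -1.88) and col-91 (-1.72 and -1.99) fell at both times. col-153 fell by 3 h (-2.17) and by less at 15 h (-0.35). col-42 dropped to 164 and 149 CPM at 3 h against 1202 and 1216 CPM in starved worms and had 511 and 623 CPM at 15 h. col-142 had 0.827 and 0.812 CPM at 3 h and 1.2 and 1.8 CPM at 15 h against 14.1 and 19.8 CPM (-4.36 and -3.50). col-17 stayed near its starved level, at 5.55 and 0.761 CPM at 3 h and 1.64 and 3.36 CPM at 15 h, neither of which passed the test against starved worms (log2 fold changes 0.14 and -0.21). Its 2 samples at 3 h were far apart, replicate 1 being the one that stood apart for 12 members. lin-42, the worm counterpart of the clock gene period that cycles with the molts, had 7.49 and 2.84 CPM in replicates 1 and 2 of that group, against 271 and 274 CPM in fed worms. Its replicates lay further apart in hlh-30(lf) worms after 15 h of CeMM, at 28.5 and 3.17 CPM. There col-17 had 194 and 21 counts in replicates 1 and 2.

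The response to CeMM differed between genotypes for many members. At 3 h, 16 members had a positive and 24 a negative interaction (background 10.3% and 11.5%), and at 15 h 26 had a positive and 15 a negative one (background 10.4% and 12%). The negative number at 3 h rested on single samples, being 37 without replicate 2 of wild-type worms at 3 h, and the earlier form of the test gave 47. col-144 had the interaction -4.0 ± 0.14 at 3 h and col-10 -3.51 ± 0.15, in both of which hlh-30(lf) worms lowered and wild-type worms raised the gene. At 15 h the values were 3.10 ± 0.21 for col-101 and 2.38 ± 0.12 for col-160, both higher than in starved worms in hlh-30(lf), and -2.47 ± 0.12 for col-166, which rose in both. For col-160 the samples had 805 and 825 CPM at 15 h and 378 and 401 CPM in starved hlh-30(lf) worms, against 226 and 215 CPM at 15 h and 553 and 543 CPM in starved wild-type worms.

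**Figure D5:**
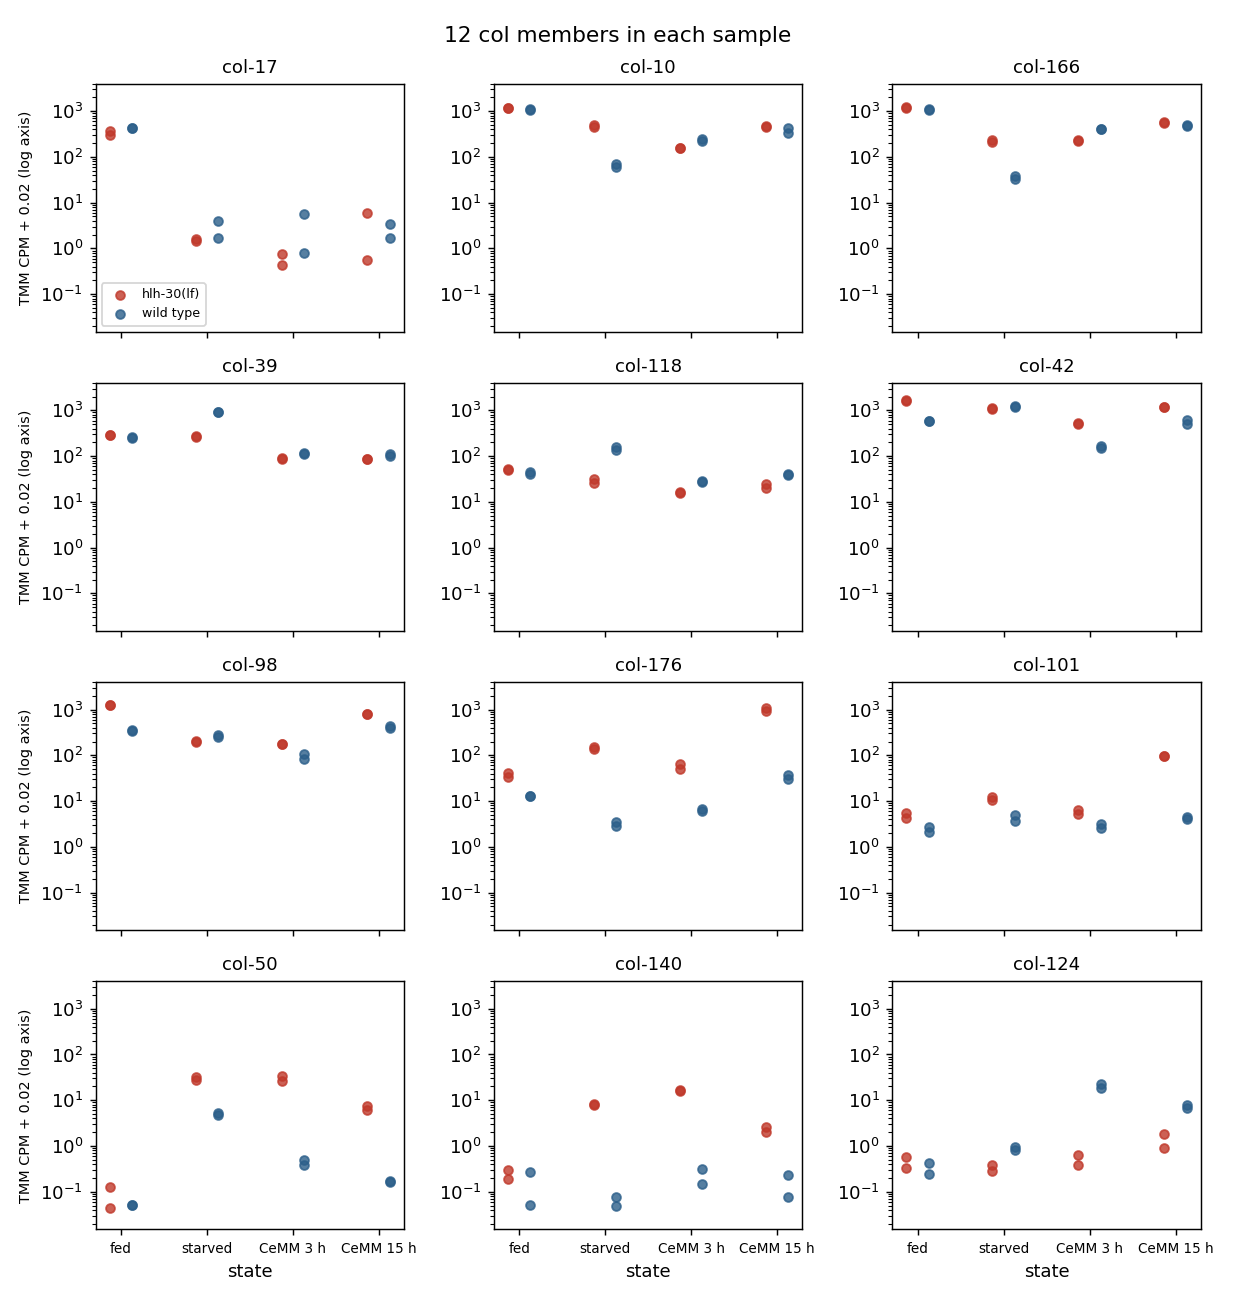
TMM-scaled CPM plus 0.02, on a log axis, of 12 members in the 4 states, with 1 point per sample and hlh-30(lf) left of wild type. col-17 is high in fed worms of both genotypes alone, col-10 and col-166 are lowest in starved wild-type worms, and col-176 had 1089 and 925 CPM in hlh-30(lf) worms after 15 h of CeMM.

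Some runs of neighbouring members moved as a whole and others in part. Of the 19 runs, 7 had all tested members lower in the starved mutant and 6 in starved wild-type worms. Of all 154 tested members, 48.1% and 46.8% were called lower in these comparisons. Whether neighbours moved together more often than other members was not tested. The run of col-92, col-93 and col-94 was lower in both. The run of col-10, col-144 and col-145 fell in both genotypes and was higher throughout in starved hlh-30(lf) worms than in starved wild-type ones. Neighbours could also part, as col-159 and col-160 did in the starved state, with col-159 at 2.92 and col-160 at -0.49 between the genotypes, and 3 runs held members of both directions in that comparison. In the col-17 run, col-17 and col-73 had at least 98.4 CPM in every fed sample, whereas col-20, named after its values were seen, stayed at or under 0.183 CPM in all samples. col-12 and col-13, which also lie side by side, were unequal. col-12 had 14.9 and 16 CPM in fed hlh-30(lf) and 7.05 and 8.26 CPM in fed wild-type worms, and col-13 2.19 and 1.99 CPM in fed hlh-30(lf) and 2.44 and 2.56 CPM in fed wild-type worms.

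Cuticle collagens that carry names of body shape (dpy, rol, sqt, bli and lon) mostly followed the fed-state members. Of 20 such genes, 14 were lower in starved than in fed hlh-30(lf) worms and 15 in wild-type worms (background 19.1% and 20.1%). In hlh-30(lf) worms 0 were higher and in wild-type worms 1 was. The median log2 fold changes were -5.23 and -5.44. rol-6, whose mutants roll, had 0.958 and 1.26 CPM in starved and 111 and 129 CPM in fed hlh-30(lf) samples, against 1.16 and 2.36 CPM in starved and 164 and 168 CPM in fed wild-type worms. Between starved genotypes 1 of the 20 was called, lower in hlh-30(lf) (background 19.3%), with a median of -0.20. Their sum in wild-type worms after 3 h of CeMM was 233 and 26.9 CPM in replicates 1 and 2, the same split as in the members. Other groups split too, with 143 and 19.1 CPM in hlh-30(lf) worms after 15 h of CeMM and 209 and 49.5 CPM in starved hlh-30(lf) worms. In starved wild-type worms replicate 2 was the higher, at 66.7 and 114 CPM.

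Of 21 collagen processing genes, the starved mutant had higher levels of 11 and lower levels of 5 relative to starved wild type (background 18.8% and 19.3%). phy-2, a subunit of the prolyl 4-hydroxylase that stabilizes the collagen helix, had 46.3 and 49.5 CPM in hlh-30(lf) and 6.89 and 6.58 CPM in wild-type worms, and dpy-18, which encodes another such subunit, 58.9 and 53.1 CPM in hlh-30(lf) and 21.7 and 23.2 CPM in wild type. No sample of either gene overlapped between genotypes, but with 2 samples a group this adds little support. Of 16 molting and epidermal regulators, starved hlh-30(lf) worms had 12 higher and 1 lower relative to wild type (background 18.8% and 19.3%). nhr-23, a nuclear receptor needed for molting, had 68.1 and 67.9 CPM in starved hlh-30(lf) and 9.72 and 10.4 CPM in starved wild-type worms, against 51.6 and 51.8 CPM in fed hlh-30(lf) and 48.6 and 48.7 CPM in fed wild-type worms. lin-42 fell in starvation in both, to 4.37 and 1.23 CPM in hlh-30(lf) worms and 1.76 and 3.5 CPM in wild-type worms, against 256 and 279.8 CPM in fed hlh-30(lf) and 271 and 274 CPM in fed wild-type worms. Both type IV basement membrane collagen genes, emb-9 and let-2, were higher in starved hlh-30(lf) than in starved wild-type worms, with log2 fold changes of 0.66 for emb-9 (adjusted p = 2.2e-07) and 0.87 for let-2 (adjusted p = 7.2e-09). cle-1, a collagen XVIII gene of the same list, was not called in that comparison.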

How the data were processed

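RNAseq of 16 samples of L1 worms, 2 per group, was analysed. Alignment of single reads to WBcel235 was by STAR 2.0.4b, and featureCounts then counted those that aligned uniquely and unambiguously to a gene. The authors deposited, per sample, raw counts of 46726 genes with CPM (the count scaled by the total count) and RPKM (CPM scaled by exon length) beside them. Tests used the counts alone, and the authors' CPM and RPKM served to check the arithmetic; CPM and RPKM in the text were computed from the counts with TMM-scaled totals. Symbols came from a gene names table (43623 IDs matched). Overlaps came from the exon positions in the deposited tables, and coding lengths, exon numbers and runs from Ensembl release 115. The members and the gene lists were chosen with earlier results of these data known, the lists from general knowledge; 1 listed regulator was not found by symbol.

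Genes with no count in all samples were removed, leaving 30177, including 154 of 156 members. A model with 1 coefficient per group was fitted to all 16 samples with edgeR's quasi-likelihood test (edgeR 4.0.16, R 4.3.3) in its current form with robust estimation. Tables were made with pandas 2.3.3 and figures with matplotlib 3.10.9, under Python 3.11.15 and numpy 2.4.6. SE is the fold change over the square root of F. Counting intervals are exact binomial (95%). The paper calls the 2 samples of a group biological replicates, run at different times. The labels say only that they are 2 samples. The p-values rest on the spread between samples of a group, estimated in 1 model over all 16 samples. The paper used limma-voom. Alternatives were DESeq2 1.42.0, limma-voom (limma 3.58.1), the earlier form of edgeR's test, RLE size factors, a filter on low counts, the replicate block, and each sample left out.

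Members named were the 10 highest by mean RPKM, members with a textbook role, and per comparison up to 8 each way (3 per interaction) with the largest called change, at least 10 CPM in a group and, for comparisons, no overlap between groups. Others are marked where named, or counted.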

Additional observations from a re-analysis of the deposited data

Results flagged for a closer look

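The values below are differences between the 2 genotypes' responses, each tested as an interaction in edgeR's quasi-likelihood fit, and positive where the change was more positive in hlh-30(lf) worms. They are the 3 largest each way among members with at least 10 CPM in a group. On starvation, the difference was 3.96 for col-176, 3.68 for col-113 and 3.63 for col-168 on the log2 scale (adjusted p = 1.8e-09, 0.0029 and 2.7e-13). It was -4.28 for col-153, -2.81 for col-92 and -2.59 for col-118 (adjusted p = 1.7e-14, 3.1e-11 and 7.6e-14).

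On 3 h of CeMM after starvation the difference between genotypes was 3.63 for col-50, 2.4 for col-142 and 2.06 for col-153 (adjusted p = 3.0e-12, 3.6e-08 and 2.7e-06). All 3 were lower after 3 h of CeMM than in starved wild-type worms. It was -4.0 for col-124, -4.0 for col-144 and -3.51 for col-10 (adjusted p = 2.1e-05, 1.5e-17 and 2.7e-14), which wild-type worms raised.

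On 15 h of CeMM it was 3.10 for col-101, 2.93 for col-50 and 2.38 for col-160 (adjusted p = 1.1e-11, 1.9e-07 and 4.4e-14), and -2.61 for col-10, -2.47 for col-166 and -2.21 for col-154 (adjusted p = 3.5e-12, 8.1e-15 and 2.4e-09). col-154 had 4.93 and 5.82 CPM at 15 h and 10.6 and 10.01 CPM in starved hlh-30(lf) worms, against 4.88 and 5.54 CPM at 15 h and 2.18 and 2.14 CPM in starved wild-type worms. The starved state enters all 3 tests, so a level that was unusual there moves each of them. Groups of 2 samples are too small for the test of a sample far from the others of its group that was planned for larger groups, so none was run.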

How the results depend on the processing

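With 2 samples a group, the calls rest on the spread between few samples, and folds of members with a few counts have wide counting intervals. The named fold changes were picked as the largest called ones of the main fit. That most kept their call in refits of the same counts therefore says little about the other members. Over 158 called fold changes of named members and 1652 alternative values of them, 1642 kept direction and call, 10 lost the call and none turned direction. The 10 were all with a sample left out and concerned col-39 and col-149 between genotypes after 15 h of CeMM, col-154 on starvation, col-99 after 3 h and col-65, col-113 and col-149 after 15 h of CeMM in hlh-30(lf) worms. Counts of members called stayed within 1.5 times under DESeq2, limma-voom, RLE size factors and the filter on low counts. The earlier form of the quasi-likelihood test called 25 higher and 14 lower in fed hlh-30(lf) against wild-type worms (15 and 1 in the report), 49 lower between genotypes after 3 h of CeMM (30), 62 lower in hlh-30(lf) after 3 h (37) and 50 lower after 15 h of CeMM (33), and 47 negative interactions with 3 h of CeMM (24). With samples left out, lower members in fed hlh-30(lf) worms numbered 0 to 0 and negative interactions with 3 h of CeMM 21 to 37, the highest without replicate 2 of wild-type worms; the 1 lower member, col-119, was thus lost with each sample. In scaling, no alternative moved the median of all genes by over 0.1 on the log2 scale.

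Replicate numbers 1 and 2 are shared by all groups in the labels. The correlation of the deviations from the group mean between samples with 1 number lay between -0.18 and 0.21 over the 10 comparisons and was above 0.1 in 3 of them. The paper's methods say that a replicate was run at its own time beside its controls, without tying these numbers to those times, so whether the numbers pair the samples is not known. With the replicate block, 0 members were lower in fed hlh-30(lf) against wild-type worms in place of 1, and no other count moved by over 1.5 times. For wild-type worms after 3 h of CeMM against starved ones a crossed pairing, chosen after seeing the data, called 19 higher and 36 lower. The cause of these changes was not tested.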
